A study of Homo sapiens with 15 samples.

Results

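AP-1 is the collective name of transcription factor dimers built from the FOS proteins (FOS, FOSB, FOSL1 and FOSL2) and the JUN proteins (JUN, JUNB and JUND). Every gene whose listed name was one of these, together with MAFF, was taken from the deposited gene tables. All 8 genes were present, among 18179 genes listed in either table of 9 libraries, and all 8 had enough signal to be tested. They were measured in HaCaT cells, an immortalised line of human skin keratinocytes, in 5 groups of 3 libraries: cells given Li-doped Ag2S NPs (silver sulfide nanoparticles that also carry lithium) at 320 μg/mL, Li-doped Ag2S NPs at 160 μg/mL, undoped Ag2S NPs at 320 μg/mL or undoped Ag2S NPs at 160 μg/mL, each for 24 h, and untreated cells (control). All groups are the same cell line. The particle groups share 1 time point, and the labels give no time for control. No source states separate cultures for the 3 libraries of a group, so p-values measure the spread between these libraries, which may be technical. The study sequenced RNA to find genes that could take part in skin fibrosis brought on by the particles, and the comparisons below ask how the messenger RNA of the AP-1 subunits differed with particle, dose and lithium.

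FOS and JUN proteins carry a basic region that binds DNA and a leucine zipper that holds the dimer together. JUN proteins can pair with each other, whereas FOS proteins need a JUN partner, and the dimers bind the palindrome TGANTCA in promoters and enhancers. Several subunits are immediate-early genes, transcribed within minutes of growth factor, wounding or stress signals that pass through MAP kinases, and in keratinocytes AP-1 acts on genes of proliferation, cornification, migration and matrix breakdown. MAFF is no FOS or JUN protein. It is a small MAF protein, also of the leucine zipper class but without an activation domain, and it pairs with itself or with NFE2L2 and related factors.

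Expression was given as FPKM, the fragments of a transcript per unit of its length and of the library, so levels can be compared between genes. Fold changes are on the scale log2(FPKM + 0.1), which understates changes of genes with a low FPKM. They were tested with limma over all genes whose mean FPKM reached 1, and a gene is said to have risen or fallen where its p, adjusted by Benjamini and Hochberg over all genes tested, lay under 0.05. Sums of FPKM per library ran from 582451 to 698579, the highest in replicate 15 of Li-doped Ag2S NPs at 320 μg/mL. The median gene lay lower with every particle than in control, at log2 fold changes of -0.26 with Li-doped Ag2S NPs at 320 μg/mL, -0.19 at 160 μg/mL, -0.19 with Ag2S NPs at 320 μg/mL and -0.14 at 160 μg/mL. Scaling each library by its median ratio brought these medians to -0.01, -0.03, -0.02 and -0.01, and calls that this scaling changed are given beside the genes. All 9 keratinocyte markers (such as KRT5, KRT14 and TP63) reached a mean FPKM of 1 in each group, and their sum ran from 23029 to 27154 with Li-doped Ag2S NPs at 320 μg/mL, 9613 to 11845 at 160 μg/mL, 13289 to 14716 with Ag2S NPs at 320 μg/mL, 12524 to 13734 at 160 μg/mL and 8363 to 8656 in control. KRT5 and KRT14 gave most of this sum, and not each marker shared its order. With Li-doped Ag2S NPs at 160 μg/mL, KRT5 ran from 2880 to 3591 FPKM, below the 4033 to 4225 of control. PERP in that group ran from 348 to 363 FPKM, against 397 to 413 in control. Reads of bulk RNA cannot tell fewer expressing cells from less RNA per cell.

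JUN, FOS and JUNB rose with either particle at either dose. FOSL1 and MAFF rose with Li-doped Ag2S NPs at 160 μg/mL and, in the deposited values, in no other group. FOSB fell with either particle at 320 μg/mL and with Li-doped Ag2S NPs at 160 μg/mL, the last a call that scaling removed, and FOSL2 and JUND passed the test against control in no group unless the libraries were scaled. With Li-doped Ag2S NPs at 320 μg/mL, 3 of the 8 genes rose and 1 fell, where 17% of all tested genes rose and 44.6% fell. With Li-doped Ag2S NPs at 160 μg/mL, 5 rose and 1 fell, where 22.6% of all tested genes rose and 40.6% fell. With Ag2S NPs at 320 μg/mL, 3 rose and 1 fell, beside 16.2% and 36.2% of all tested genes. With Ag2S NPs at 160 μg/mL, 3 rose and 0 fell, beside 11.5% and 23.8%. The scaled values gave 7 rises and 1 fall, 6 and 0, 6 and 1, and 3 and 0 in the same 4 comparisons, where 27.4%, 29.8%, 23.2% and 16% of all tested genes rose and 26.9%, 31%, 22.5% and 14% fell. Called in either direction were 61.6%, 63.3%, 52.4% and 35.2% of all tested genes before scaling. The libraries of the particle group and of control did not overlap for 5, 6, 4 and 5 of the 8 genes in these comparisons, and for 67.1%, 71.1%, 65.5% and 52.2% of all tested genes. Since the 4 comparisons share the control libraries, they are not independent of each other.

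**Figure D1:**
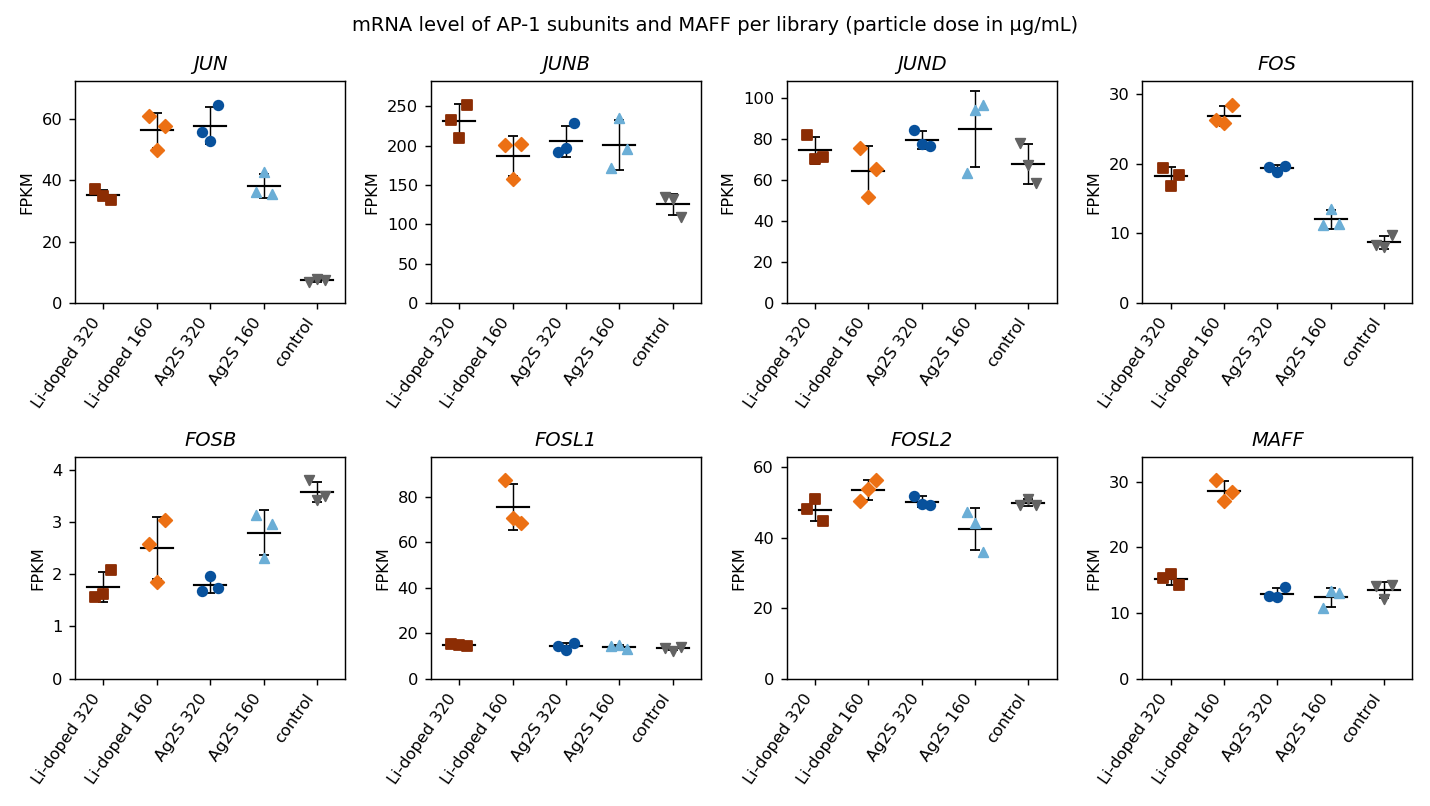
FPKM of each gene in each of the 15 libraries, 1 panel per gene with its own axis from 0, by group (Li-doped Ag2S NPs at 320 and 160 μg/mL, Ag2S NPs at 320 and 160 μg/mL, control). Points are libraries, the horizontal line is the mean and the bar is the SD of 3 libraries. JUN lies between 33.7 and 64.7 in the particle groups and between 6.7 and 7.92 in control, and FOSL1 stands at 68.4 to 87.1 with Li-doped Ag2S NPs at 160 μg/mL alone.

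The promoter sequences of the 3 subunits that rose in all groups, JUN, FOS and JUNB, and of MAFF are shown because members of the family are themselves targets of AP-1 and CREB-type factors. Each is a window of 300 bases around a transcript start of RefSeq on GRCh38.p14, most of it upstream, 5′ to 3′ on the gene's strand. RefSeq promoters were at hand for 7 of the 8 genes, FOSL1 being the exception. Capitals mark matches to TGANTCA (the AP-1 element), TGACNTCA (the cyclic AMP and ATF element) or TGACNNNGC (the core of MAF and NFE2L2 elements), searched on both strands, and no match printed here shares bases with another.
JUN, chr1:58783998-58784297, minus strand: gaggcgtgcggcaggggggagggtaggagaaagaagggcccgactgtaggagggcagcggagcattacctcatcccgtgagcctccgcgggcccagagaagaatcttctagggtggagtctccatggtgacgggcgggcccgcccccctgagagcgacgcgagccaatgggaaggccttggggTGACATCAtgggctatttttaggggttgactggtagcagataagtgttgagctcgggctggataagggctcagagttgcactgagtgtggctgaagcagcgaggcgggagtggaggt
FOS, chr14:75278578-75278877, plus strand: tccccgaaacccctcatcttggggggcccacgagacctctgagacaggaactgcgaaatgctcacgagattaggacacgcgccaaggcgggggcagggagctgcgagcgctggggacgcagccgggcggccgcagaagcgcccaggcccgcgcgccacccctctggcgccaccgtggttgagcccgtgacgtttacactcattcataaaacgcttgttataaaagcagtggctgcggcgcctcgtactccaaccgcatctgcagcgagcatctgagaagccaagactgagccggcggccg
JUNB, chr19:12791236-12791535, plus strand: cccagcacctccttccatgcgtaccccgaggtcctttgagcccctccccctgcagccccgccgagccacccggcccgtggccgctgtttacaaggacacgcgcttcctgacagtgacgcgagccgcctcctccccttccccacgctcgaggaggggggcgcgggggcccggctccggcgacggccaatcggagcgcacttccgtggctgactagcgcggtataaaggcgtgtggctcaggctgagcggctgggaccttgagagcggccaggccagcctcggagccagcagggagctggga
MAFF, chr22:38201744-38202043, plus strand: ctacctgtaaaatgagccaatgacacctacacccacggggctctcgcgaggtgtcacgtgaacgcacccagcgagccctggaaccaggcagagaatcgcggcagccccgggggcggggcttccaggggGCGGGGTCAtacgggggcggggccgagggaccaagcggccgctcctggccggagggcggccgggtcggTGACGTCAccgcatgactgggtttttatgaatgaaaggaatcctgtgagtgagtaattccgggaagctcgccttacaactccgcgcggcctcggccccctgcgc
The JUN window held TGACATCA, beginning at position -67 from the start. The MAFF window held TGACGTCA at -54 and, on the reverse strand, a TGACNNNGC element read here as GCGGGGTCA at -122, while a MAFF window at a start further downstream held none. The FOS, JUNB and FOSB windows held no exact match, nor did any window of the 7 genes hold a CArG box, the element of serum response factor. Only exact matches within these windows were counted. The tgacgttt of the FOS window was therefore not marked, and sequence further upstream was not searched. The JUND window held 3 matches, TGACGTCA at -200, TGACCCGGC at -230 and GCGACGTCA at -90, and the FOSL2 window held TGACTCA from position 5 after the start. Of 35116 RefSeq promoters of that length, 7.71% hold TGANTCA, 7.72% TGACNTCA, 13.3% TGACNNNGC and 1.29% a CArG box. A match is a string of letters in the window and was not measured as a bound site.

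JUN encodes c-Jun, the subunit that JUN kinases phosphorylate, and it had the largest fold changes against control among the 8 genes. The gene lies on chromosome 1 of GRCh38 from 58780788 to 58784327 in the GENCODE 29 annotation and has a single listed transcript. Its FPKM was 37.1, 34.8 and 33.7 with Li-doped Ag2S NPs at 320 μg/mL, 61.1, 50.1 and 58.0 with Li-doped Ag2S NPs at 160 μg/mL, 56.0, 53.0 and 64.7 with Ag2S NPs at 320 μg/mL, and 36.4, 42.9 and 35.6 with Ag2S NPs at 160 μg/mL, against 6.7, 7.92 and 7.36 in control. No particle library came near a control library. The log2 fold change was 2.25 (SE 0.10, adjusted p = 1.2e-08 from limma) with Li-doped Ag2S NPs at 320 μg/mL, 4.80 times the control mean. It was 2.93 (SE 0.11, adjusted p = 4.18e-09) at 160 μg/mL, 7.69 times. With Ag2S NPs it was 2.96 (SE 0.10, adjusted p = 2.53e-09) at 320 μg/mL and 2.37 (SE 0.11, adjusted p = 2.84e-07) at 160 μg/mL, 7.90 and 5.22 times the control mean. JUN stood near the top of the whole table, since 53 of 11903 genes had a larger log2 fold change with Ag2S NPs at 320 μg/mL and 34 of 11987 at 160 μg/mL, while 115 and 144 genes did with Li-doped Ag2S NPs at 320 and 160 μg/mL.

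The order of JUN levels over doses was opposite for Li-doped and undoped particles. JUN was lower with Li-doped than with undoped Ag2S NPs at 320 μg/mL (log2 fold change -0.71, SE 0.10, 95% interval -0.92 to -0.50, adjusted p = 0.000514 from limma). It was higher with Li-doped than with undoped Ag2S NPs at 160 μg/mL (0.56, SE 0.11, 95% interval 0.32 to 0.79, adjusted p = 0.00135). In the fit of all 15 libraries, JUN at 320 μg/mL was lower than at 160 μg/mL with Li-doped Ag2S NPs (-0.67, adjusted p = 9.14e-05) and higher with Ag2S NPs (0.60, adjusted p = 0.0016). The difference between these dose effects was -1.27 (SE 0.15, adjusted p = 6.99e-06). The levels with Ag2S NPs at 320 μg/mL and Li-doped Ag2S NPs at 160 μg/mL overlapped, as did those with Ag2S NPs at 160 μg/mL and Li-doped Ag2S NPs at 320 μg/mL.

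JUNB, a JUN protein with weaker activation that in keratinocytes also restrains proliferation and cytokine genes, had the highest FPKM of the 8 genes in each group. The gene is on chromosome 19 from 12791496 to 12793315. Its FPKM was 232, 210 and 252 with Li-doped Ag2S NPs at 320 μg/mL, 201, 158 and 202 with Li-doped Ag2S NPs at 160 μg/mL, 192, 197 and 228 with Ag2S NPs at 320 μg/mL, and 171, 235 and 196 with Ag2S NPs at 160 μg/mL, against 134, 132 and 110 in control. Each particle library was above each control library, and the particle groups overlapped their neighbours in the order of means. The log2 fold changes against control were 0.89 (SE 0.10, adjusted p = 2.23e-05) and 0.57 (SE 0.13, adjusted p = 0.00307) with Li-doped Ag2S NPs at 320 and 160 μg/mL, and 0.72 (SE 0.10, adjusted p = 0.000122) and 0.67 (SE 0.13, adjusted p = 0.00364) with Ag2S NPs at those doses, all from limma. Between Li-doped and undoped particles JUNB did not pass the test at 320 μg/mL (0.17, 95% interval -0.05 to 0.39) or at 160 μg/mL (-0.10, 95% interval -0.39 to 0.20). Exons of JUNB overlap those of HOOK2 on the opposite strand, and whether strand was used in counting is not stated. HOOK2 had a mean FPKM of 49.1, 43.6, 47.0 and 37.0 in the particle groups, taken in the same order, and 54.9 in control.

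JUND, the JUN protein that most resting cells hold at a steady level, did not pass the test against control in any group. Its position is chromosome 19 from 18279760 to 18281622. Its FPKM was 82.1, 70.2 and 71.4 with Li-doped Ag2S NPs at 320 μg/mL, 75.8, 51.4 and 65.5 at 160 μg/mL, 84.6, 77.4 and 76.6 with Ag2S NPs at 320 μg/mL, and 63.4, 94.3 and 96.7 with Ag2S NPs at 160 μg/mL, against 78.1, 67.2 and 58.4 in control. All particle groups overlapped control. Log2 fold changes against control were 0.14, -0.09, 0.24 and 0.30 in that order of groups, with adjusted p of 0.25, 0.689, 0.0715 and 0.21 from limma. After scaling they were 0.39, 0.08, 0.40 and 0.43, of which those at 320 μg/mL passed (adjusted p = 0.00997 with Li-doped and 0.0096 with undoped Ag2S NPs), and the value with Li-doped Ag2S NPs at 160 μg/mL had changed sign.

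FOS, the founding and most short-lived subunit, rose with all particles and was highest with Li-doped Ag2S NPs at 160 μg/mL. It lies on chromosome 14 from 75278774 to 75282230. Its FPKM was 19.4, 16.8 and 18.5 with Li-doped Ag2S NPs at 320 μg/mL, 26.3, 25.9 and 28.5 with Li-doped Ag2S NPs at 160 μg/mL, 19.6, 18.9 and 19.7 with Ag2S NPs at 320 μg/mL, and 11.2, 13.6 and 11.3 with Ag2S NPs at 160 μg/mL, against 8.37, 8.02 and 9.79 in control. The 3 libraries of Li-doped Ag2S NPs at 160 μg/mL lay above all others, both groups at 320 μg/mL overlapped each other, and the lowest particle library still exceeded the highest control library. Log2 fold changes against control were 1.06 (SE 0.10, adjusted p = 5.97e-06), 1.62 (SE 0.11, adjusted p = 4.23e-07), 1.15 (SE 0.10, adjusted p = 3.56e-06) and 0.46 (SE 0.11, adjusted p = 0.00996) from limma in the same order, or 2.09, 3.08, 2.22 and 1.38 times the control mean. FOS was higher with Li-doped than with undoped Ag2S NPs at 160 μg/mL (1.16, SE 0.11, adjusted p = 1.01e-05) and did not pass the test at 320 μg/mL (-0.09, 95% interval -0.31 to 0.13). As for JUN, the level at 320 μg/mL was lower than at 160 μg/mL with Li-doped Ag2S NPs (-0.56, adjusted p = 0.000372) and higher with Ag2S NPs (0.69, adjusted p = 0.000437), and the dose effects differed by -1.25 (SE 0.14, adjusted p = 6.56e-06 from limma). The transcript FOS-201 held most of the FPKM, at a mean of 13.8, 20.6, 17.03 and 10.9 in the particle groups and 8.28 in control.

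FOSB, whose protein resembles FOS and is known from lasting responses in the brain, was the lowest of the 8 genes and the one that fell. It lies on chromosome 19 from 45467995 to 45475179. Its FPKM was 1.56, 1.63 and 2.09 with Li-doped Ag2S NPs at 320 μg/mL, 2.59, 1.86 and 3.04 at 160 μg/mL, 1.67, 1.97 and 1.74 with Ag2S NPs at 320 μg/mL, and 3.13, 2.31 and 2.96 with Ag2S NPs at 160 μg/mL, against 3.8, 3.42 and 3.51 in control. All 12 particle libraries lay below the 3 control libraries. The log2 fold change was -0.99 (SE 0.18, adjusted p = 0.00081 from limma) with Li-doped and -0.96 (SE 0.18, adjusted p = 0.00124) with undoped Ag2S NPs at 320 μg/mL. At 160 μg/mL it was -0.53 (SE 0.21, adjusted p = 0.0442) with Li-doped and -0.35 (SE 0.21, adjusted p = 0.204) with undoped Ag2S NPs, and the first of these did not pass after scaling (-0.36, adjusted p = 0.164), without the low-expression filter (adjusted p = 0.0695), or when any of Li-doped replicates 10 and 11 and control replicates 1, 2 and 3 was left out (-0.57 to -0.34, adjusted p = 0.0672 to 0.167). Between Li-doped and undoped particles FOSB did not pass at 320 μg/mL (-0.03, 95% interval -0.44 to 0.37) or at 160 μg/mL (-0.18, 95% interval -0.63 to 0.28). Among fibroblast genes, RNA of LUM and DCN was also highest in control, while other markers near 0 did not share this order. PDGFRB was lowest in control, at a mean of 0.007, against 0.077 to 0.417 in the particle groups. PDGFRA was highest with Ag2S NPs at 160 μg/mL (0.183, against 0.06 in control). COL1A2 and COL3A1 had means of 0.03 or less in each group. The summed FPKM over a list of 7 fibroblast markers (of which THY1 was not analysed here) ran from 0.71 to 3.94 with Li-doped Ag2S NPs at 320 μg/mL, 0.32 to 0.65 at 160 μg/mL, 0.65 to 1.46 with Ag2S NPs at 320 μg/mL, 3.82 to 4.97 at 160 μg/mL, and 10.7 to 15.04 in control. The sum over a list of 4 endothelial markers (of which KDR was not analysed here), nearly all CDH5 in control, was 3.36 to 4.01 there and 0.07 to 0.81 over the particle libraries. The part of either list in the level of FOSB was not tested.

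**Figure D2:**
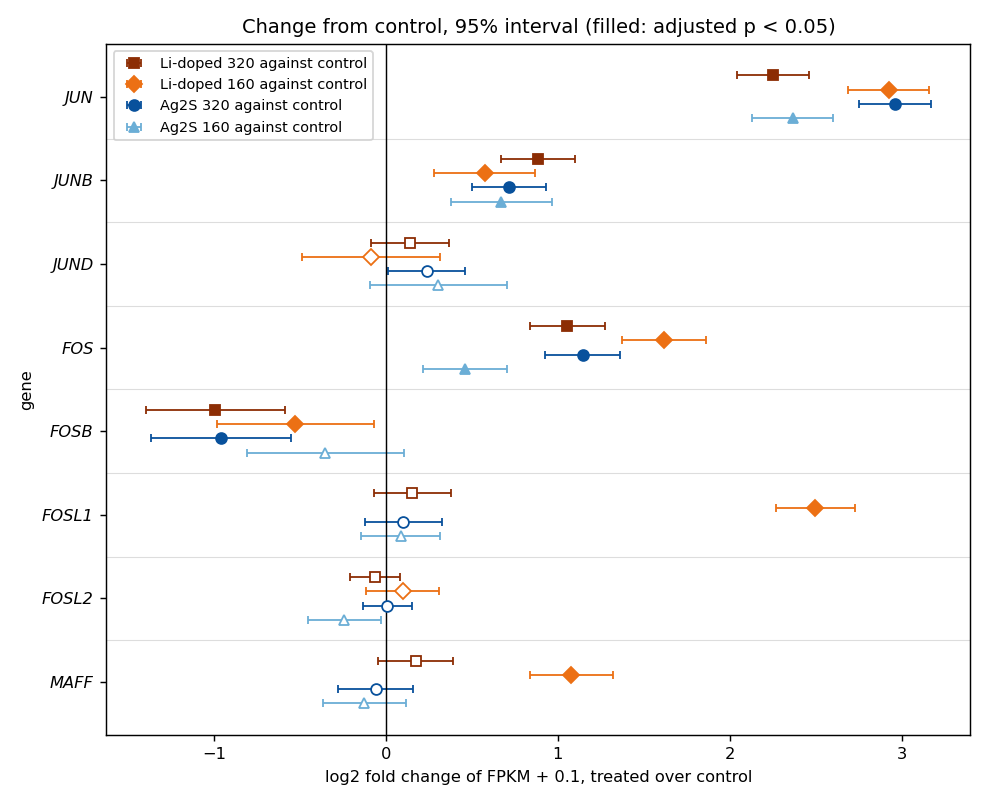
Log2 fold change of FPKM + 0.1 of each gene in each particle group against control from limma, with its 95% interval, and filled symbols where the adjusted p lay under 0.05. JUN lies at 2.25 to 2.96 in the 4 comparisons, while FOSL1 and MAFF have filled symbols for Li-doped Ag2S NPs at 160 μg/mL alone, at 2.50 and 1.08 (after scaling, which is not drawn, both also passed with Li-doped Ag2S NPs at 320 μg/mL and FOSL1 with Ag2S NPs at 320 μg/mL).

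FOSL1 encodes FRA1, a FOS protein without the strong activation domain of FOS that is known from wound edges and invasive epithelial cells, and its level in 1 group stood apart from all others. It lies on chromosome 11 from 65892049 to 65900573. Its FPKM was 15.1, 14.7 and 14.3 with Li-doped Ag2S NPs at 320 μg/mL, 87.1, 70.6 and 68.4 with Li-doped Ag2S NPs at 160 μg/mL, 14.4, 12.5 and 15.7 with Ag2S NPs at 320 μg/mL, and 14.1, 14.8 and 13.2 with Ag2S NPs at 160 μg/mL, against 13.5, 12.3 and 13.9 in control. The 3 libraries of Li-doped Ag2S NPs at 160 μg/mL lay far above the other 12, whose whole range was 12.3 to 15.7. The log2 fold change of that group was 2.50 against control (SE 0.10, adjusted p = 1e-08 from limma), 5.70 times the control mean. Against Ag2S NPs at 160 μg/mL it was 2.41 (SE 0.10, adjusted p = 3.3e-08), and 111 of 11987 genes had a larger rise in that comparison. At 320 μg/mL Li-doped and undoped particles differed by 0.05 (95% interval -0.17 to 0.28), which did not pass the test. FOSL1 at 320 μg/mL of Li-doped Ag2S NPs was lower than at 160 μg/mL by -2.34 (SE 0.11, adjusted p = 2.29e-10), and only 47 of 11952 genes had a lower log2 fold change between these doses. The dose effects of the particles differed by -2.36 (SE 0.15, adjusted p = 1.42e-08 from limma).

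Against control, FOSL1 did not pass with Li-doped Ag2S NPs at 320 μg/mL (0.15, 95% interval -0.07 to 0.38, adjusted p = 0.211 from limma) or with Ag2S NPs at 320 μg/mL (0.10, adjusted p = 0.425) and 160 μg/mL (0.09, adjusted p = 0.547). Scaling raised these to 0.40 (adjusted p = 0.00658), 0.26 (adjusted p = 0.05) and 0.21 (adjusted p = 0.125), of which the first and second were calls. The transcript FOSL1-201 had a mean FPKM of 54.8 with Li-doped Ag2S NPs at 160 μg/mL, against 10.2 at 320 μg/mL, 9.69 and 9.23 with Ag2S NPs at 320 and 160 μg/mL and 8.74 in control. FOSL1-202 was likewise high in that group, at 16.0, against 2.78 to 3.57 in the others. Both transcripts thus carried the difference.

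FOSL2 encodes FRA2, a FOS protein that keratinocytes hold during differentiation, and its level hardly moved. Its position is chromosome 2 from 28392448 to 28417312. Its FPKM was 48.1, 51.0 and 44.8 with Li-doped Ag2S NPs at 320 μg/mL, 50.5, 53.8 and 56.3 at 160 μg/mL, 52.0, 49.6 and 49.3 with Ag2S NPs at 320 μg/mL, and 47.2, 44.3 and 36.0 with Ag2S NPs at 160 μg/mL, against 49.4, 51.1 and 49.4 in control. Only the group with Ag2S NPs at 160 μg/mL lay wholly below control (log2 fold change -0.24, adjusted p = 0.0722 from limma). The other comparisons with control gave -0.06, 0.10 and 0.01 with Li-doped Ag2S NPs at 320 and 160 μg/mL and Ag2S NPs at 320 μg/mL. After scaling these 3 were 0.18, 0.27 and 0.17 and passed (adjusted p = 0.0182, 0.0281 and 0.028), the first with its sign changed. FOSL2 was higher with Li-doped than with undoped Ag2S NPs at 160 μg/mL (0.34, SE 0.10, adjusted p = 0.0131), and the dose effects differed by -0.41 (SE 0.13, adjusted p = 0.0172), also from limma.

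MAFF, the small MAF protein, was high in the same group as FOSL1. On chromosome 22 it runs from 38200767 to 38216511. Its FPKM was 15.4, 16.0 and 14.3 with Li-doped Ag2S NPs at 320 μg/mL, 30.2, 27.0 and 28.5 with Li-doped Ag2S NPs at 160 μg/mL, 12.5, 12.4 and 13.9 with Ag2S NPs at 320 μg/mL, and 10.8, 13.4 and 12.99 with Ag2S NPs at 160 μg/mL, against 14.2, 12.1 and 14.3 in control. The libraries of Li-doped Ag2S NPs at 160 μg/mL lay between 27.0 and 30.2 and all others between 10.8 and 16.0. The log2 fold change of that group was 1.08 against control (SE 0.11, adjusted p = 8.33e-06 from limma) and 1.203 against Ag2S NPs at 160 μg/mL (SE 0.11, adjusted p = 6.67e-06). The other particle groups did not pass against control, at 0.17, -0.06 and -0.13 with Li-doped Ag2S NPs at 320 μg/mL and Ag2S NPs at 320 and 160 μg/mL. With scaling they stood at 0.42 (adjusted p = 0.00327), 0.10 and 0.002, the first now a rise and the others turned in sign without passing. Li-doped minus undoped at 320 μg/mL was 0.23 (95% interval 0.01 to 0.45, adjusted p = 0.108), which passed after scaling (0.31, adjusted p = 0.0332). The dose effects differed by -0.97 (SE 0.15, adjusted p = 9.08e-05). MAFF-201 held most of the FPKM, at a mean of 25.6 in the high group, against 10.0 to 14.6 in the others.

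CD68, a lysosomal protein listed as a leukocyte marker but also made by other cells, was highest where FOSL1 and MAFF were high. The summed FPKM of 4 of the 5 leukocyte markers (CD68, CD14, CD3E and LYZ, with PTPRC not analysed here) ran from 9.55 to 12.03 with Li-doped Ag2S NPs at 320 μg/mL, 25.8 to 29.4 at 160 μg/mL, 18.0 to 21.8 with Ag2S NPs at 320 μg/mL, 13.9 to 15.8 at 160 μg/mL and 11.1 to 12.1 in control. LYZ was not listed for the particle groups at 320 μg/mL and added nothing to their sums. CD68 gave nearly all of this sum, with a mean of 26.6 in the highest group against 10.1 to 18.3 in the other groups. CD14 did not share this order, with a mean of 0.52 and 1.09 with Li-doped Ag2S NPs at 320 and 160 μg/mL and 1.38 and 1.69 with Ag2S NPs at 320 and 160 μg/mL, against 1.23 in control. CD3E was listed at 0 in all 3 libraries of Li-doped Ag2S NPs at 160 μg/mL and had means of 0.14 to 0.27 in the other groups, and LYZ was listed at 0 in that group too.

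Li-doped and undoped Ag2S NPs differed in more of these genes at 160 than at 320 μg/mL, as they did over all tested genes. At 160 μg/mL, 5 of the 8 genes (FOSL1, MAFF, FOS, JUN and FOSL2) were higher with Li-doped than with undoped Ag2S NPs and 0 were lower, where 21.4% of all tested genes were higher and 29% lower (50.4% in either direction). Scaling also gave 5 and 0, beside 23.6% and 26.4%. At 320 μg/mL, JUN alone passed and was lower, where 10.1% of all tested genes were higher and 16.1% lower (26.2% in either direction). Scaling added MAFF as higher, beside 12.1% and 11.8% of all genes. Between the doses of Li-doped Ag2S NPs, 4 genes (FOSL1, MAFF, JUN and FOS) were lower at 320 than at 160 μg/mL and 0 higher, where 23.3% and 19.6% of all genes were (42.8% in either direction). Scaling added JUNB as higher (0.38, adjusted p = 0.0498 from limma), beside 22.6% higher and 19.9% lower of all genes. Between the doses of Ag2S NPs, 2 genes (FOS and JUN) were higher at 320 μg/mL and 0 lower, where 4.84% and 7.68% of all genes were (12.5% in either direction). Scaling added FOSL2 as higher (0.28, adjusted p = 0.0372), beside 6.23% higher and 5.67% lower. The difference between the dose effects passed for 5 genes (FOSL1, JUN, FOS, MAFF and FOSL2), all negative, where 19.5% of all genes had a negative and 20.2% a positive difference (39.7% in all). With scaling these shares were 18.8% and 21.1%, and again 5 genes were negative. The libraries did not overlap between Li-doped and undoped particles for 2 of the 8 genes at 320 μg/mL and 5 at 160 μg/mL, and for 41.3% and 55% of all genes. They did not overlap between doses for 5 genes with Li-doped and 4 with undoped Ag2S NPs, and for 49.5% and 31.9% of all genes.

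**Figure D3:**
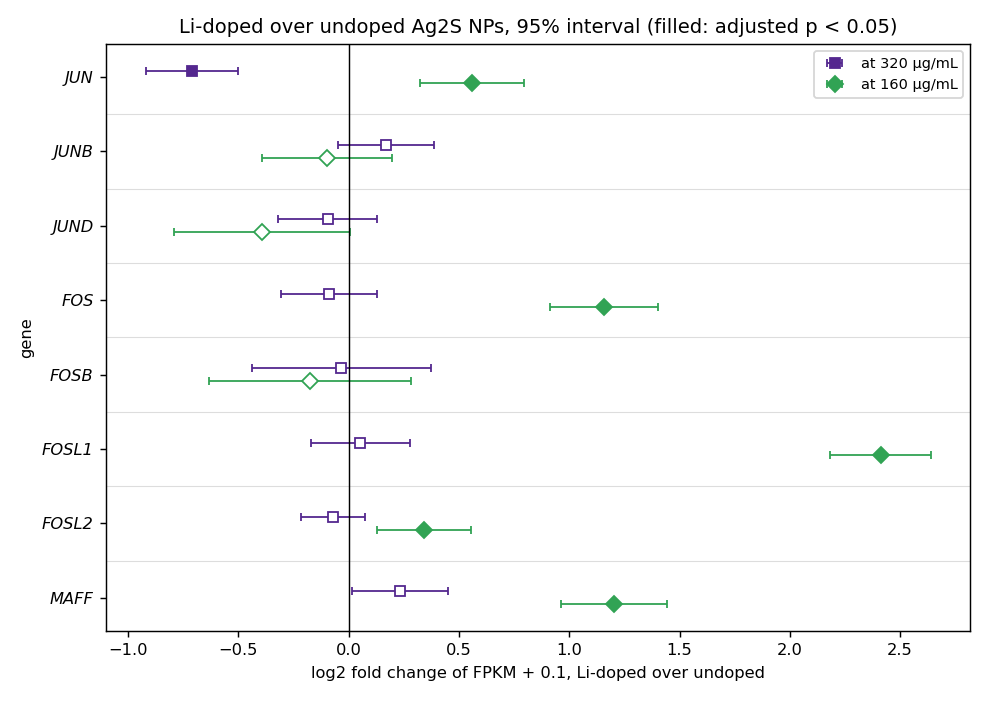
Log2 fold change of FPKM + 0.1 of Li-doped over undoped Ag2S NPs at 320 μg/mL and at 160 μg/mL from limma, with 95% intervals, and filled symbols where the adjusted p lay under 0.05. FOSL1 lies at 2.41 at 160 μg/mL and 0.05 at 320 μg/mL, and JUN lies on opposite sides of 0, at 0.56 and -0.71.

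The makeup of the pool of these mRNAs differed between groups. FPKM summed over the 8 genes was 439 ± 20.9 with Li-doped Ag2S NPs at 320 μg/mL, 495 ± 50.005 at 160 μg/mL, 442 ± 25.03 with Ag2S NPs at 320 μg/mL and 407 ± 51.5 at 160 μg/mL, against 290 ± 21.4 in control (SD, n = 3 libraries each). JUNB was the largest component in each group, from 37.8% with Li-doped Ag2S NPs at 160 μg/mL to 52.6% with Li-doped Ag2S NPs at 320 μg/mL. FOSL1 made up 15.3% ± 1.62 of the pool with Li-doped Ag2S NPs at 160 μg/mL, and 3.35%, 3.21%, 3.47% and 4.59% in the groups of Li-doped Ag2S NPs at 320 μg/mL, Ag2S NPs at 320 and 160 μg/mL and control. The share of JUN was 8.03% ± 0.48, 11.4% ± 0.04, 13.1% ± 0.63 and 9.43% ± 0.70 in the particle groups and 2.54% ± 0.32 in control. The FOS proteins together made up 32.1% ± 2.22 with Li-doped Ag2S NPs at 160 μg/mL, against 18.9% ± 1.33 at 320 μg/mL, 19.4% ± 0.96 and 17.7% ± 3.02 with Ag2S NPs at 320 and 160 μg/mL and 26.2% ± 2.31 in control. These shares describe mRNA and were not tested.

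**Figure D4:**
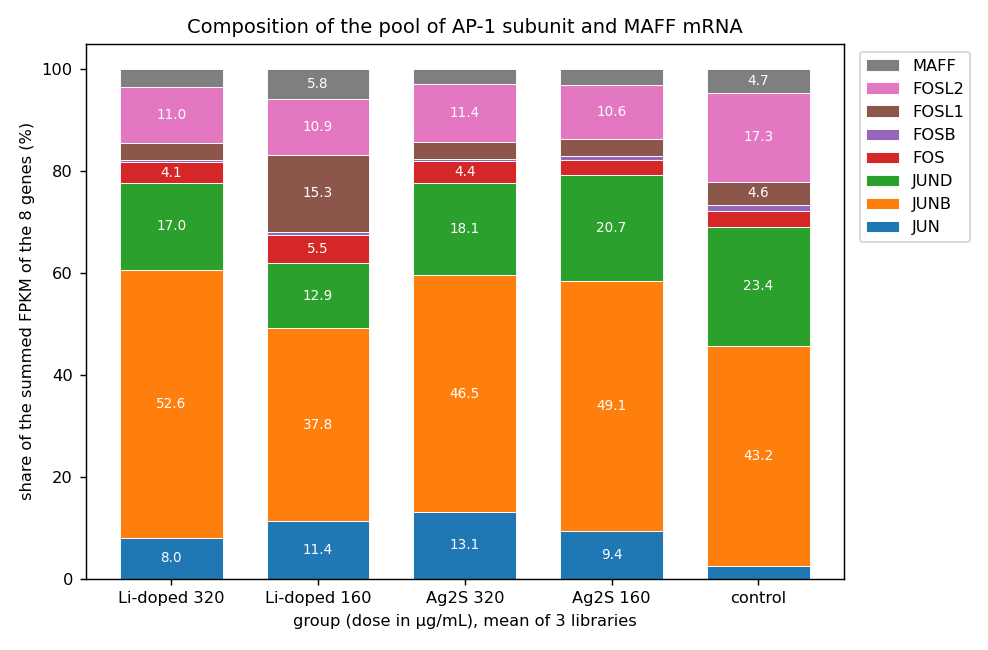
Share of each gene in the summed FPKM of the 8 genes, as the mean of 3 libraries per group (Li-doped Ag2S NPs at 320 and 160 μg/mL, Ag2S NPs at 320 and 160 μg/mL, control), with shares above 4% printed. JUNB is the largest block in each bar, and the FOSL1 block is 15.3% with Li-doped Ag2S NPs at 160 μg/mL and 3.21% to 4.59% elsewhere.

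Across the 15 libraries, whose points share the 5 groups and are not independent, log2(FPKM + 0.1) of FOSL1 and MAFF had a Pearson r of 0.963, that of FOS and JUN 0.837, and that of JUN and JUNB 0.791. FOSL1 and JUNB had an r of 0.063. Among all genes whose mean FPKM reached 1, the closest to FOSL1 were PLIN2, which coats lipid droplets (r 0.991), HBEGF, a ligand of the EGF receptor (0.99), and OSGIN1, a gene of oxidative stress (0.986). The level of HBEGF was 70.3 ± 7.58 FPKM with Li-doped Ag2S NPs at 160 μg/mL, against 8.31 ± 0.71 at 320 μg/mL, 8.71 ± 0.37 and 8.70 ± 0.49 with Ag2S NPs at 320 and 160 μg/mL and 9.10 ± 0.72 in control. PLIN2 stood at 79.3 ± 6.83 FPKM in the first of these groups and at means of 16.7 to 19.96 in the others. The closest to MAFF were RBCK1 (r 0.978), a subunit of a ubiquitin ligase, CARS (0.976), the cysteinyl-tRNA synthetase, and TRIB3 (0.974), a pseudokinase of the stress response. TRIB3 had 341 ± 28.2 FPKM with Li-doped Ag2S NPs at 160 μg/mL, against 70.9 ± 6.50 at 320 μg/mL, 41.9 ± 2.05 and 45.0 ± 3.50 with Ag2S NPs and 42.4 ± 2.13 in control.

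The genes closest to FOS were DUSP7, a phosphatase of MAP kinases (r 0.988), L1CAM, an adhesion molecule (0.987), and PFN2, an actin-binding protein (0.982). L1CAM had 12.3 ± 1.29 and 39.6 ± 1.06 FPKM with Li-doped Ag2S NPs at 320 and 160 μg/mL and 10.6 ± 1.11 and 1.48 ± 0.02 with Ag2S NPs at 320 and 160 μg/mL, against 0.37 ± 0.16 in control. Those closest to JUN were SYNGR3 (0.988), PIM1, a serine kinase (0.987), and HS3ST2, a heparan sulfate sulfotransferase (0.986), and PIM1 had a mean FPKM of 31.5 to 38.2 in the particle groups and 16.0 in control. Closest to JUNB were SLC2A4RG (0.964), CITED4 (0.956) and PWWP2B (0.953), to FOSB EFTUD2 (0.896), LMNB2 (0.896) and COPS3 (0.895), to FOSL2 ELMSAN1 (0.944), CRYGS (0.932) and SRSF6 (0.906), and to JUND H1FX (0.882), TPGS1 (0.85) and NR2F6 (0.849). These likenesses mix differences between group means with spread between the libraries of a group. For JUND all particle groups overlapped control, and H1FX had an SD of 10.7 to 25.6 FPKM within groups. No likeness says anything of each gene's control.

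Other leucine zipper proteins that pair with FOS or JUN were measured next. Of 9 listed partners 5 were tested, of which 3 rose and 2 fell with Li-doped Ag2S NPs at 320 μg/mL, 3 rose and 2 fell at 160 μg/mL, and 1 rose and 0 fell with Ag2S NPs at either dose. Their median log2 fold changes were 0.52, 0.65, -0.15 and 0.03, beside the medians of all genes given above. For this list and those below, 17%, 22.6%, 16.2% and 11.5% of all tested genes rose in the same 4 comparisons. Of all tested genes, 44.6%, 40.6%, 36.2% and 23.8% fell. After scaling 27.4%, 29.8%, 23.2% and 16% rose and 26.9%, 31%, 22.5% and 14% fell. Scaling gave 3 rises and 2 falls, 4 and 0, 2 and 0, and 2 and 0. ATF3, a stress-induced repressor, had 8.03 ± 1.26 and 21.6 ± 0.96 FPKM with Li-doped Ag2S NPs at 320 and 160 μg/mL and 9.38 ± 0.47 and 5.73 ± 0.24 with Ag2S NPs at 320 and 160 μg/mL, against 4.25 ± 0.63 in control, and rose in all 4 comparisons (log2 fold change 0.90, 2.33, 1.13 and 0.43, the largest adjusted p = 0.0194 from limma). ATF4, the factor of the amino acid and unfolded protein responses, rose with Li-doped Ag2S NPs at 320 μg/mL (0.69, adjusted p = 2.64e-05) and 160 μg/mL (1.25, adjusted p = 1.89e-08) and did not pass with Ag2S NPs (0.18 and 0.11). JDP2, a repressor that pairs with JUN, likewise passed with Li-doped Ag2S NPs (0.52 and 0.65) and not with Ag2S NPs (-0.18 and 0.03). It was higher with Li-doped than with undoped Ag2S NPs at 320 μg/mL (0.69, adjusted p = 0.000514) and at 160 μg/mL (0.62, adjusted p = 0.000641). ATF2 was lower, at -0.59 and -0.43 with Li-doped Ag2S NPs, both calls, and -0.18 and -0.21 with Ag2S NPs, neither a call. After scaling, ATF4 rose in all 4 groups and ATF2 fell with Li-doped Ag2S NPs at 320 μg/mL alone.

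Among 9 tested MAF, CNC and BACH genes, the partners of MAFF, 3 rose and 2 fell with Li-doped Ag2S NPs at 320 μg/mL, 4 rose and 1 fell at 160 μg/mL, 4 rose and 0 fell with Ag2S NPs at 320 μg/mL and 3 rose and 1 fell at 160 μg/mL, with medians of 0.07, 0.07, 0.02 and 0.08. Scaling gave 5 rises and 1 fall, 5 and 0, 5 and 0, and 3 and 0. MAF, a large MAF protein, had 11.3 ± 0.71 and 3.60 ± 0.62 FPKM with Li-doped Ag2S NPs at 320 and 160 μg/mL and 10.7 ± 1.11 and 8.90 ± 1.10 with Ag2S NPs at 320 and 160 μg/mL, against 3.63 ± 0.59 in control. Its dose effects differed between particles by 1.37 (adjusted p = 0.000141 from limma), of the sign opposite to the -0.97 of MAFF. NFE2L3 rose in all 4 groups, most with Li-doped Ag2S NPs at 160 μg/mL (1.97, adjusted p = 8.7e-08). NFE2L2, the main factor of the antioxidant response, was lower with Li-doped Ag2S NPs at 320 μg/mL (-0.60, adjusted p = 9.74e-06) and at 160 μg/mL (-0.17, adjusted p = 0.0239), of which the second did not pass after scaling, while with Ag2S NPs at 320 μg/mL NFE2L2 rose after scaling alone.

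Factors and kinases upstream of AP-1 rose and fell in mixed numbers, to be read beside the shares of all tested genes given above. Of 9 factors that bind the FOS and JUN promoters, 0 rose and 4 fell with Li-doped Ag2S NPs at 320 μg/mL, 2 rose and 1 fell at 160 μg/mL, and 1 rose and 2 fell and 1 rose and 1 fell with Ag2S NPs at 320 and 160 μg/mL. Scaling gave 2 and 2, 2 and 1, 3 and 1, and 2 and 1. CREB1 (-0.64, adjusted p = 0.000481) and ELK4 (-0.95, adjusted p = 0.000782) fell with Li-doped Ag2S NPs at 320 μg/mL, and MEF2D rose with Li-doped Ag2S NPs at 160 μg/mL (0.53, adjusted p = 0.00146 from limma). ELK4 also fell with Ag2S NPs at 320 μg/mL (-0.56, adjusted p = 0.0198) and 160 μg/mL (-0.70, adjusted p = 0.00982 from limma), and scaling kept both calls. MRTFB fell with Li-doped Ag2S NPs at 320 μg/mL (-0.65, adjusted p = 0.0386) and 160 μg/mL (-0.97, adjusted p = 0.000668), of which the first did not pass after scaling. Of 21 MAP kinase cascade genes, 4 rose and 11 fell, 5 rose and 9 fell, 2 rose and 8 fell, and 1 rose and 3 fell in the same order of groups, and 5 and 4, 7 and 8, 3 and 5, and 4 and 1 after scaling. MAP2K7, a kinase that activates JUN kinases, fell in all 4 groups (-0.68, -1.29, -0.88 and -0.46, the largest adjusted p = 0.00403 from limma). MAPK11, a p38 kinase, rose in all 4 (0.99, 1.04, 0.88 and 0.40, the largest adjusted p = 0.0111). MAPK12, another p38 kinase, passed in all but Ag2S NPs at 160 μg/mL, and RPS6KA1 passed with Li-doped Ag2S NPs at 320 μg/mL (0.45) and 160 μg/mL (0.44), while after scaling both genes rose in all 4 groups. The p38 kinases MAPK13 and MAPK14 did not rise. MAPK13 fell in all groups but Ag2S NPs at 160 μg/mL (-0.22, -0.52 and -0.35, the largest adjusted p = 0.0301 from limma). After scaling it fell with Li-doped Ag2S NPs at 160 μg/mL alone. MAPK14 passed in no group.

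Of 7 genes that shorten the life of FOS and JUN mRNA or protein, 1 rose and 4 fell with Li-doped Ag2S NPs at 320 μg/mL, 1 rose and 2 fell at 160 μg/mL, 1 rose and 2 fell with Ag2S NPs at 320 μg/mL and 0 rose and 1 fell at 160 μg/mL. Scaling gave 1 rise and 3 falls, 2 and 1, 2 and 2, and 0 and 1. ZFP36L2, which binds AU-rich elements, fell in all 4 groups, to 62.2 ± 6.15, 44.8 ± 2.72, 70.9 ± 5.18 and 69.9 ± 3.93 FPKM, against 103.7 ± 5.31 in control. Its relative ZFP36 rose in the first 3 of these groups (0.33, 0.58 and 0.33, the largest adjusted p = 0.0158 from limma). COP1 and ITCH, ubiquitin ligases that act on JUN, fell with Li-doped Ag2S NPs at 320 μg/mL (-0.42 and -0.73, adjusted p = 0.0013 and 0.00144) and did not pass in the other groups, and after scaling COP1 passed in none.

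Most other immediate-early genes rose in 3 of the 4 groups, and in all 4 after scaling. Of 17 tested, 11 rose and 2 fell with Li-doped Ag2S NPs at 320 μg/mL, 14 rose and 1 fell at 160 μg/mL, 12 rose and 2 fell with Ag2S NPs at 320 μg/mL and 6 rose and 1 fell at 160 μg/mL, with median log2 fold changes of 0.38, 1.10, 0.47 and 0.15. Scaling gave 12 rises and 0 falls, 15 and 1, 13 and 1, and 10 and 1. Li-doped Ag2S NPs at 160 μg/mL exceeded Ag2S NPs at 160 μg/mL in 13 of the 17 and lay lower in 3, where 21.4% of all tested genes were higher and 29% lower. IER3 had 107 ± 11.2 and 299.6 ± 24.3 FPKM with Li-doped Ag2S NPs at 320 and 160 μg/mL and 121 ± 14.9 and 77.6 ± 1.83 with Ag2S NPs at 320 and 160 μg/mL, against 24.2 ± 2.17 in control. PHLDA1 was high where FOSL1 was high, with 47.5 ± 1.53 FPKM with Li-doped Ag2S NPs at 160 μg/mL, against 8.87 ± 1.33 at 320 μg/mL, 6.96 ± 0.32 and 5.68 ± 0.83 with Ag2S NPs and 6.15 ± 0.13 in control, and unlike FOSL1 it rose in the deposited values at 320 μg/mL of Li-doped Ag2S NPs too (0.51, adjusted p = 0.00515 from limma), and after scaling with Ag2S NPs at 320 μg/mL as well. EGR1 had its groups in the order of FOS, with 61.5 ± 3.59 and 122 ± 3.29 FPKM with Li-doped Ag2S NPs at 320 and 160 μg/mL and 69.2 ± 1.61 and 50.9 ± 7.23 with Ag2S NPs, against 34.9 ± 0.61 in control. The dose effects of the particles differed by -2.12 for IER3, -2.72 for PHLDA1, -1.44 for EGR1 and -1.47 for TRIB1, the largest adjusted p being 1.31e-06 from limma.

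Of 23 tested genes known as AP-1 targets in keratinocytes, 16 rose and 5 fell with Li-doped Ag2S NPs at 320 μg/mL, 19 rose and 4 fell at 160 μg/mL, 18 rose and 4 fell with Ag2S NPs at 320 μg/mL and 17 rose and 4 fell at 160 μg/mL. Their median log2 fold changes were 1.35, 1.52, 1.02 and 0.70. Scaling gave 17 rises and 4 falls, 19 and 3, 18 and 3, and 18 and 4. LAMA3, a laminin chain, was highest with Li-doped Ag2S NPs at 160 μg/mL, at 683 ± 24.9 FPKM, against 243 ± 30.4 at 320 μg/mL, 292 ± 14.5 and 174 ± 11.8 with Ag2S NPs at 320 and 160 μg/mL and 59.9 ± 1.65 in control, and exceeded Ag2S NPs at 160 μg/mL by 1.97 (adjusted p = 5.9e-09 from limma). MMP10, a matrix metalloproteinase, was highest with Ag2S NPs at 320 μg/mL, at 775 ± 9.92 FPKM against 65.0 ± 2.32 in control. Of the 23 genes, the difference of dose effects was negative in 16 and positive in 6, where it was negative in 19.5% and positive in 20.2% of all tested genes. Whether any subunit acts on these genes was not measured.

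**Figure D5:**
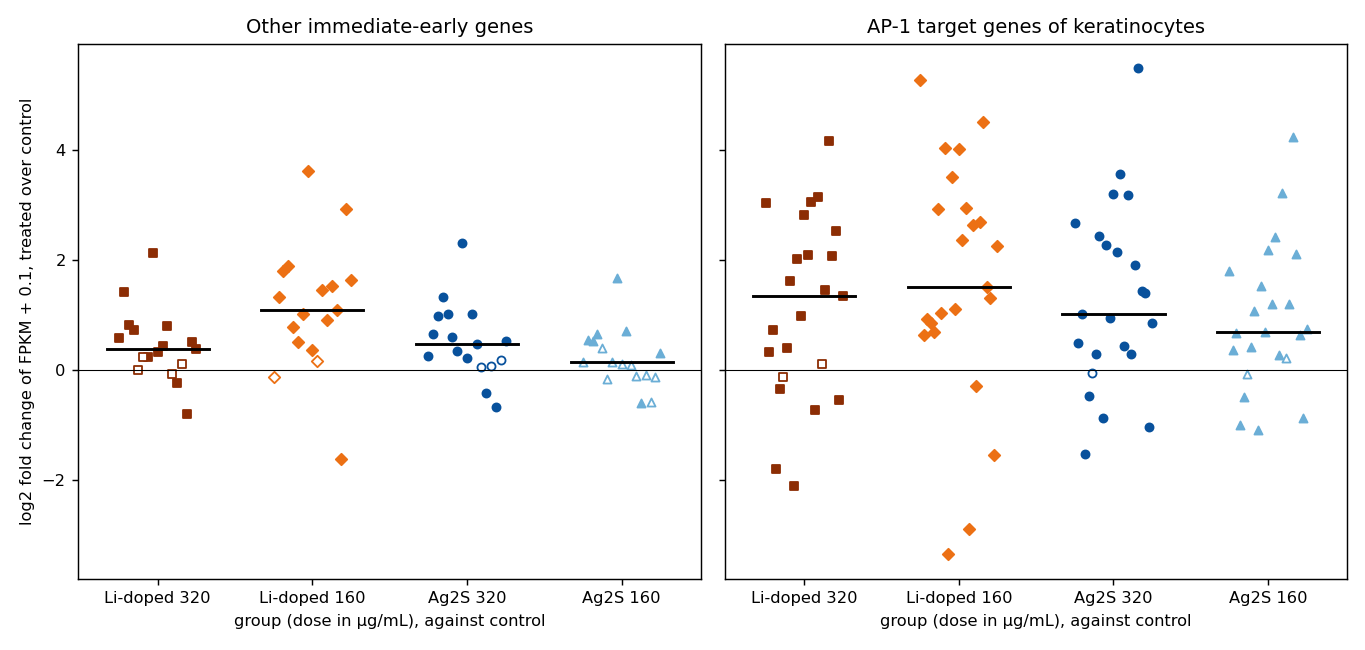
Log2 fold change of FPKM + 0.1 against control of the 17 other immediate-early genes (left) and the 23 AP-1 target genes (right) tested, in each particle group. Each point is a gene, filled where the adjusted p lay under 0.05, and the bar is the median, which for the immediate-early genes is 1.10 with Li-doped Ag2S NPs at 160 μg/mL and 0.38 at 320 μg/mL.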

How the data were processed

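HaCaT RNA was sequenced from 15 libraries, 3 per group as the labels give them. The authors used TopHat for alignment, Cufflinks 2.1.1 for expression and Cuffdiff for their comparisons, with multi-read and fragment-bias correction. The genome build is not given in the sources used here. FPKM was deposited per gene, rounded to 2 decimals. Their columns of the authors' own comparisons (group FPKM, log2 ratios, p-values and q-values) were not used. The control values are the same in the tables of both doses. Depth is unknown, so precision was taken from the 3 libraries.

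Genes whose mean FPKM reached 1 were fitted in R 4.3.3 with limma 3.58.1 (lmFit, eBayes with trend, 2-sided, Benjamini-Hochberg over 11903 genes at 320 μg/mL and 11987 at 160 μg/mL) on log2(FPKM + 0.1). Doses and the interaction used all 15 libraries (11952 genes). The code was tested on simulated data. The text names all 8 members, up to 4 genes per list with the smallest p in any comparison with control, the 3 genes per member with the highest Pearson r, and markers of the listed cell types. It also names HOOK2, MAPK13 and MAPK14, which were chosen after their values were seen. Some genes that this rule selects are not reported here. Members and lists were chosen with earlier results of these data known. Other settings tried were pseudocounts of 0.01 and 1, a filter at a mean FPKM of 5 or none, libraries scaled by median ratio, 2-group and 15-library fits, robust eBayes, weights per library and leaving out each library. Promoters are RefSeq sequences of GRCh38.p14, and gene positions are those of GENCODE 29 on GRCh38, which holds all 18179 gene identifiers.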

Additional observations from a re-analysis of the deposited data

Results flagged for a closer look

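For 5 genes the change with dose differed between the particles by the interaction test in limma. The dose effect of Li-doped Ag2S NPs (320 against 160 μg/mL) minus that of undoped Ag2S NPs was -2.36 on the log2 scale for FOSL1, where the dose effects were -2.34 and 0.02. It was -1.27 for JUN, with dose effects of -0.67 and 0.60, and -1.25 for FOS, with dose effects of -0.56 and 0.69. It was -0.97 for MAFF, with dose effects of -0.91 and 0.07, and -0.41 for FOSL2, with dose effects of -0.16 and 0.25. The adjusted p ran from 1.42e-08 for FOSL1 to 0.0172 for FOSL2.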

How the results depend on the processing

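Of 34 called results on the 8 genes, 33 kept their direction and their call under every alternative run, the exception being FOSB with Li-doped Ag2S NPs at 160 μg/mL against control, and FOSB could not be tested where a mean FPKM of at least 5 was asked. Of the 8 genes, 4 were called for Li-doped Ag2S NPs at 320 μg/mL against control, but 8 with scaling by median ratio and 7 with weights per library. For Ag2S NPs at 320 μg/mL 4 were called and 7 with scaling, and for Ag2S NPs at 160 μg/mL 3 were called and 6 with weights, where leaving out 1 library gave 3 to 5 (5 without Ag2S replicate 4). For Li-doped against undoped Ag2S NPs at 320 μg/mL the count was 1, and 2 with scaling and with weights. Counts over all genes moved with weights, to 6417 against 4220 for Ag2S NPs at 160 μg/mL against control, to 4777 against 3124 for Li-doped against undoped Ag2S NPs at 320 μg/mL and to 2998 against 1497 between doses of Ag2S NPs. Without Ag2S replicate 7 or 8 at 320 μg/mL the second of these was 1720 or 1943, and without replicate 7, 8 or 9 the third was 934, 926 or 963. The cause was not tested.

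No called value turned its sign. Uncalled values that did so with scaling were FOSL2 with Li-doped Ag2S NPs at 320 μg/mL (0.18, then a call), JUND at 160 μg/mL (0.081), MAFF with Ag2S NPs at 320 μg/mL (0.10) and 160 μg/mL (0.002), all against control, and FOSB (0.044) and FOSL2 (0.011) for Li-doped against undoped Ag2S NPs at 320 μg/mL. With weights they were JUND in the last comparison (0.028), FOSL1 (-0.084), JUNB (-0.12) and MAFF (-0.015) between doses of Ag2S NPs and FOSB in the interaction (-0.13). Leaving out 1 library gave -0.216 to 0.063 for JUND with Li-doped Ag2S NPs at 160 μg/mL and -0.016 to 0.024 for FOSL2 with Ag2S NPs at 320 μg/mL against control, -0.157 to 0.043 for FOSB and -0.037 to 0.127 for FOSL1 between particles at 320 μg/mL, -0.325 to 0.014 for FOSB and -0.206 to 0.021 for JUNB at 160 μg/mL, -0.059 to 0.105 for FOSL1, -0.066 to 0.162 for JUNB, -0.264 to 0.039 for JUND and -0.031 to 0.127 for MAFF between doses of Ag2S NPs, and -0.048 to 0.292 for FOSB in the interaction. No paired analysis was possible because the groups share no replicate number. With 3 libraries per group and an unknown depth, small differences of low genes such as FOSB were not resolved.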
